A study of Danio rerio with 10 samples.

Results

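Neutrophil traffic in zebrafish runs on a small set of chemokine receptors and ligands, and 7 of their genes were followed here. They were the receptor genes cxcr1, cxcr2, cxcr4a and cxcr4b and the chemokine genes cxcl8a, cxcl12a and cxcl18b. They were chosen by gene symbol. Of the 7, cxcr4a, cxcr4b, cxcl12a and cxcl18b had at least 10 counts in total over the 5 messenger RNA (mRNA) libraries, in which 15335 genes were listed. The other 3, cxcr1, cxcr2 and cxcl8a, are not listed under these symbols and so were not measured here. The values below therefore describe the Cxcr4 receptors with their ligand Cxcl12a, and the chemokine Cxcl18b, and say nothing of Cxcl8a or of its receptors Cxcr1 and Cxcr2.

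Chemokines are small secreted proteins that cells sense through receptors coupled to G proteins of the Gi class. In neutrophils, Cxcl8 acting on Cxcr1 and Cxcr2 draws cells towards wounds and infection, and Cxcl18b is another attractant sensed through Cxcr2 in zebrafish. Cxcl12, made mainly by stromal cells, acts on Cxcr4 and holds neutrophils in the blood-forming tissue. The zebrafish genes cxcr4a and cxcr4b are duplicates of a single ancestral gene.

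The miR-199 group held neutrophils from larvae of the AB background at 3 days post fertilization, carrying a transgene for the microRNA miR-199 together with a green fluorescent reporter, with 3 libraries. They were set against neutrophils of the same age and background that carried a vector control with the reporter, with 2 libraries. The design asks which mRNAs of neutrophils respond to miR-199. Both groups were obtained by fluorescence-activated cell sorting and amplified with a low-input kit. The labels give neither the promoter of the transgene nor the number of larvae, cells or clutches behind a library, so p-values measure only the spread between these libraries, which may be technical.

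Library totals ran from 12339928 to 17024134 counts, so that 3 counts, taken as the limit that a count of 0 allows, equalled 0.182 to 0.235 CPM. CPM stands for counts per 1000000 counted reads, here after scaling by the trimmed mean of M values (TMM), and intervals on counts cover counting error only. As a check of the labels, the hairpin gene mir199-2a had 9.01, 3.45 and 3.91 CPM in miR-199 libraries, against 1.57 and 1.1 CPM in vector libraries (edgeR adjusted p 0.0562). A gene counted as called where the edgeR p-value, adjusted over all tested genes, was under 0.05. This held for 1772 of 8897 genes (19.9%), 844 of them (9.49%) higher and 928 (10.4%) lower in miR-199 neutrophils. With scaling by library totals only, the split was 1139 higher and 674 lower, while the median log2 fold change of all genes was 0.15, against 0.019 with TMM. The calls rested on having both vector libraries: 2 genes were called without vector replicate 1 and 0 without vector replicate 3, where a lone vector library is assumed to vary like the miR-199 group. At an unadjusted edgeR p under 0.05 these fits held 1815 and 1598 genes, against 3281 with all libraries. DESeq2 and limma-voom were run with all libraries only, and called 2673 and 1726 genes. All 12 neutrophil markers were measured, and lect2l and lyz exceeded every listed gene except actb2 in mean level per length. The neutrophil markers summed to 58300 to 68500 CPM in miR-199 libraries, against 86700 to 93600 CPM in vector libraries, and 4 of the 12 (lyz, lect2l, mmp9 and cebp1) were called lower and 0 higher. The markers did not all run one way: 4 others had positive fitted log2 fold changes, among them cpa5 at 0.58 (edgeR adjusted p 0.0553), il6r at 0.49 (0.0955) and srgn at 0.35 (0.113). The part of this difference in the results below was not tested.

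The receptor gene cxcr4b dominated the measured chemokine system and did not pass the test between the groups. It lies on the plus strand of chromosome 9 at 10692955 to 10694930 (GRCz11) in 2 listed exons, and no other listed gene overlaps it. It had 9980, 8760 and 9200 CPM in miR-199 replicates 1, 2 and 3, against 7400 and 8580 CPM in vector replicates 1 and 3. All 3 miR-199 libraries were above both vector libraries, but the nearest values of the groups, 8760 and 8580 CPM, lay closer together than the 2 vector libraries did. The mean was 9310 ± 620 CPM (SD, n = 3) in miR-199 neutrophils and 7990 ± 836 CPM (SD, n = 2) in vector neutrophils. The fitted log2 fold change was 0.22 (SE 0.15, 95% interval -0.14 to 0.58), a ratio of 1.17, and the edgeR adjusted p was 0.328. The interval leaves room for a level up to 0.58 log2 units higher in miR-199 neutrophils, and for a decrease of at most 0.14. Among tested genes 57.3% showed no overlap between the groups' libraries, so the lack of overlap of cxcr4b is the common case. The change was larger with scaling by library totals only, at 0.36 with an adjusted p of 0.111, where the median of all genes also moved up by about the same step.

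Per length, cxcr4b was among the most abundant of the listed genes, and genes that are not listed have no rank. Scaled by its 1624 bases of listed exon, it had 6150, 5390 and 5660 CPM per kilobase in miR-199 libraries, against 4550 and 5280 CPM per kilobase in vector libraries. This put it at rank 8 in each miR-199 library, and at ranks 10 and 9 in vector replicates 1 and 3. On the mean of the 5 libraries it stood at 5410 CPM per kilobase, next to 5340 for cebpb, a transcription factor gene of myeloid cells, and 5500 for icn. The gene icn is used as a keratinocyte marker, and it is taken up again below. The standard deviation of log2(CPM + 0.5) of cxcr4b was 0.0954 among miR-199 libraries, where the median tested gene had 0.277. Between vector libraries it was 0.151, where the median tested gene had 0.106. Its spread was thus below that of the median gene among miR-199 libraries and above it between vector libraries.

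**Figure D1:**
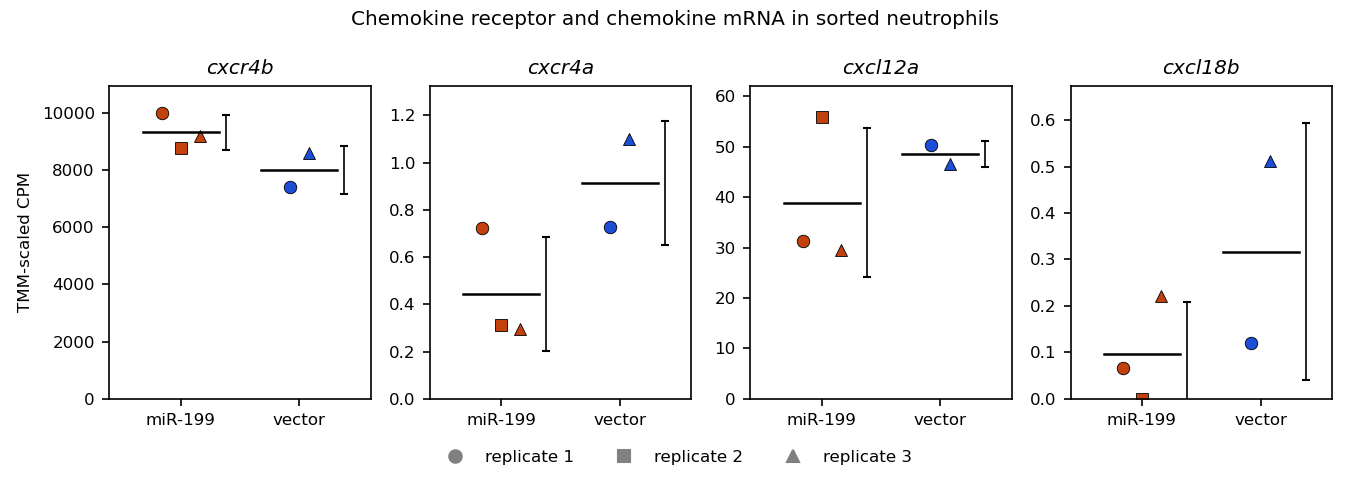
TMM-scaled CPM of the 4 measured genes in each library, with miR-199 neutrophils in orange and vector neutrophils in blue. Marker shapes give the replicate number, horizontal lines the group means and side bars 1 SD, cut at 0 for cxcl18b. In the cxcr4b panel the 3 miR-199 libraries sit between 8760 and 9980 CPM, while cxcr4a and cxcl18b stay at or below 1.1 CPM.

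The duplicate receptor gene cxcr4a was near the limit of detection. It lies on the plus strand of chromosome 6 at 12922117 to 12923726, in 2 listed exons. The counts were 11, 4 and 4 in miR-199 replicates 1, 2 and 3, against 12 and 15 in vector replicates 1 and 3. In CPM these were 0.723, 0.314 and 0.295 in miR-199 neutrophils, against 0.727 and 1.1 in vector neutrophils. The values of replicate 1 in the 2 groups were almost equal, and with library totals as the scale the groups overlapped, at 0.757 CPM in miR-199 replicate 1 against 0.705 CPM in vector replicate 1. The 95% exact Poisson interval ran from 5.49 to 19.7 counts in miR-199 replicate 1 and from 6.20 to 21.0 counts in vector replicate 1. The fitted log2 fold change was -1.00 (SE 0.72, 95% interval -2.74 to 0.74), and the edgeR adjusted p was 0.355, so that a difference was not detectable at this depth.

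Per length, cxcr4b exceeded cxcr4a by 12900-fold, 26100-fold and 29200-fold in miR-199 replicates 1, 2 and 3, and by 9510-fold and 7310-fold in vector replicates 1 and 3. Expressed in counts, cxcr4a had 7.25, 3.58 and 3.21 counts for every 100000 of cxcr4b in miR-199 libraries, against 9.82 and 12.8 in vector libraries. How reads that match both duplicates were counted is not given in the sources used here. At this ratio a few misplaced cxcr4b reads and true cxcr4a transcripts cannot be told apart.

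The chemokine gene cxcl12a, which encodes the ligand of the Cxcr4 receptors, was detected in every library and did not pass the test. It lies on the plus strand of chromosome 13 at 30804398 to 30818221, in 4 listed exons. It had 31.3, 55.9 and 29.6 CPM in miR-199 replicates 1, 2 and 3, against 50.4 and 46.7 CPM in vector replicates 1 and 3. Replicates 1 and 3 of the miR-199 group lay below both vector libraries and replicate 2 above both, so the groups overlapped. The mean was 38.9 ± 14.7 CPM (SD, n = 3) in miR-199 neutrophils and 48.6 ± 2.63 CPM (SD, n = 2) in vector neutrophils. The fitted log2 fold change was -0.32 (SE 0.30, 95% interval -1.05 to 0.41), and the edgeR adjusted p was 0.484. The value moved with single libraries. Without miR-199 replicate 2 it was -0.67 with an adjusted p of 0.0635, and it was -0.17 without miR-199 replicate 1 and -0.15 without miR-199 replicate 3. The standard deviation of log2(CPM + 0.5) of cxcl12a among miR-199 libraries was 0.502, against 0.0954 for cxcr4b. For cxcr4a it was 0.35, but there the added 0.5 narrows the spread, so these 2 genes cannot be ranked by it.

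Because cxcl12a is known as a stromal gene, markers of stromal cells were read beside it. Of 14 stromal markers 7 were measured, 6 had under 10 counts and the rest are not listed. The listed ones summed to 6.97, 13.4 and 14.9 CPM in miR-199 replicates 1, 2 and 3, against 11.3 and 10.2 CPM in vector replicates 1 and 3. The markers col1a1a and pdgfra were at 0 in all libraries, but col1a1a is listed on several sequences, where a 0 does not show that a gene is silent. The marker pdgfrb, with the highest mean CPM of the list, averaged 4.86 ± 3.34 CPM (SD, n = 3) in miR-199 neutrophils and 4.5 ± 0.573 CPM (SD, n = 2) in vector neutrophils. Per length and over the 5 libraries, cxcl12a averaged 28.2 CPM per kilobase and the highest stromal marker on that scale, acta2, averaged 1.69 CPM per kilobase. The stromal sum was highest in miR-199 replicate 3, where cxcl12a was lowest, and the other libraries had the same order in both. The part of stromal cells in the level of cxcl12a was not tested. In sorted bulk samples, fewer cells of a type and less RNA per cell cannot be told apart.

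The chemokine gene cxcl18b was barely detected. Its 4 listed exons span 49222569 to 49225759 of chromosome 1, minus strand. The counts were 1, 0 and 3 in miR-199 replicates 1, 2 and 3, against 2 and 7 in vector replicates 1 and 3. In CPM these were 0.0658, 0 and 0.221 in miR-199 neutrophils, against 0.121 and 0.512 in vector neutrophils. The groups overlapped, and 0 counts in miR-199 replicate 2 allow up to 0.235 CPM. The gene did not pass the filter on low counts and has no test among the 8897 genes. Fitted without that filter, it had a fitted log2 value of -1.61 (SE 1.45; edgeR adjusted p 0.526), which rests on 13 counts in all.

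Of the 4 measured genes, then, 3 were tested and 0 were called by edgeR, where 19.9% of all tested genes were called. None of the 3 had an unadjusted p under 0.05, and both DESeq2 and limma-voom called 0 of them. Across all alternatives the sign held for each: cxcr4b ran from 0.11 to 0.36, cxcr4a from -1.28 to -0.69 and cxcl12a from -0.67 to -0.15. The lowest adjusted p of any alternative was 0.0635 for cxcl12a, 0.111 for cxcr4b and 0.322 for cxcr4a.

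**Figure D2:**
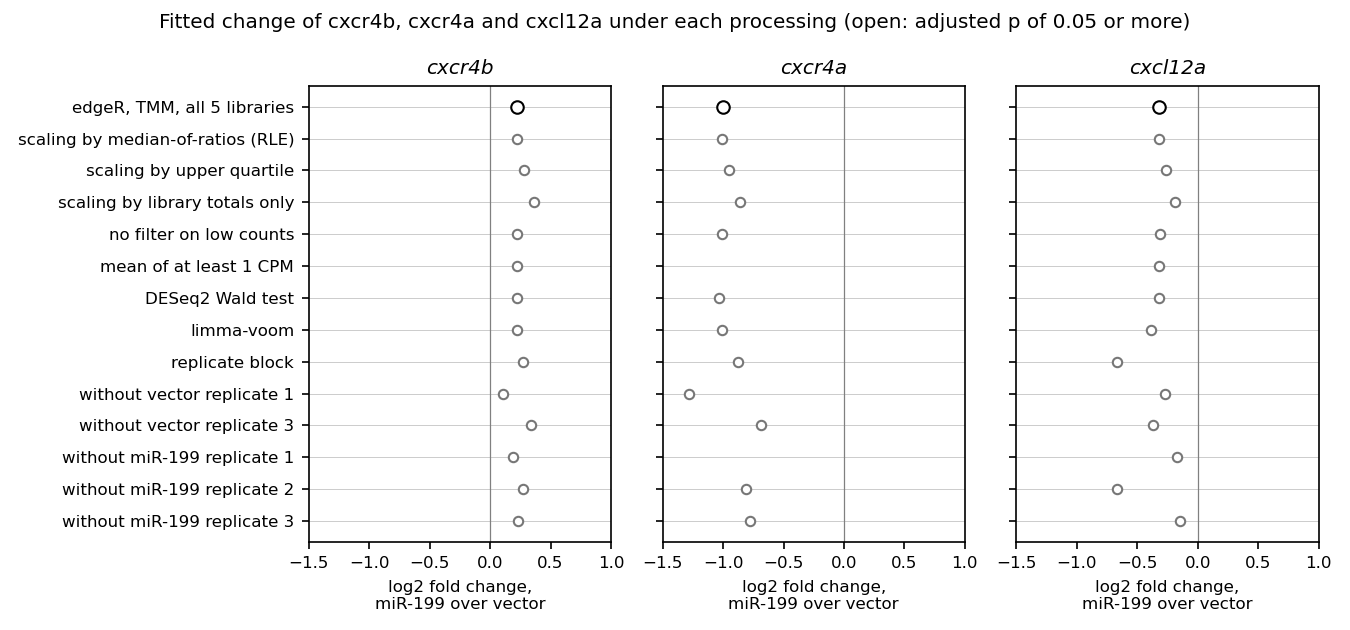
Log2 fold change of miR-199 over vector neutrophils for cxcr4b, cxcr4a and cxcl12a, with each row a way of processing. All symbols are open, since no adjusted p was under 0.05. The cxcr4b values lie between 0.11 and 0.36, and cxcl12a moves from -0.32 to -0.67 without miR-199 replicate 2. Fits whose filter removed cxcr4a have no point.

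By the rule of smallest root mean square difference of centred log2 CPM over the 5 libraries, the genes with the pattern most like cxcr4b were paip1, which encodes a partner of the poly(A)-binding protein, at 0.0181, and the RNA-binding protein gene sltm at 0.0223. For cxcr4a they were anapc5, which encodes a subunit of the anaphase-promoting complex, at 0.0403, and hdhd2 at 0.0768. For cxcl12a they were the cytochrome P450 gene cyp2aa7 at 0.0498 and the nuclear transport factor gene nutf2 at 0.0722. As many as 196 genes lay within 0.1 of cxcr4b, against 13 of cxcr4a and 6 of cxcl12a. These counts are not comparable between the genes, since a flatter profile has more genes within a fixed distance. From its own mean, cxcr4b deviated by a root mean square of 0.142, against 0.386 for cxcr4a and 0.369 for cxcl12a. The profile of cxcr4a rests on 4 to 15 counts per library and that of cyp2aa7 on 8 to 23. The 0.5 added to CPM before taking log2 narrows both.

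The other measured chemokine receptors were far below cxcr4b. Of 23 further receptor genes 6 were measured and 5 tested. Another 4 had under 10 counts. The rest are not listed under these symbols, so nothing can be said of their expression. The highest was cxcr3.2, a receptor related to mammalian CXCR3, with 70.4, 37.2 and 49.5 CPM in miR-199 replicates 1, 2 and 3, against 82.7 and 83.8 CPM in vector replicates 1 and 3. All miR-199 values were below both vector values, and the log2 fold change was -0.67 (SE 0.26; edgeR adjusted p 0.124). Without miR-199 replicate 1 it was -0.92 with an adjusted p of 0.0143, and of the 13 alternatives this was the only one that called the gene. Per length, cxcr4b exceeded cxcr3.2 by 105-fold to 275-fold over the 5 libraries.

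Its paralog cxcr3.3 had a mean of 6.30 ± 2.37 CPM (SD, n = 3) in miR-199 neutrophils and 10.9 ± 0.237 CPM (SD, n = 2) in vector neutrophils, and its log2 fold change was -0.79 (SE 0.36; edgeR adjusted p 0.170). For ccr9a, a receptor known for homing to thymus and gut in mammals, the values were 29.6, 26.7 and 14.2 CPM in miR-199 libraries, against 21.5 and 24.5 CPM in vector libraries, and the log2 fold change was 0.034 (SE 0.33; edgeR adjusted p 0.951). The scavenger receptor gene ackr3b, which in zebrafish clears Cxcl12a, had 28, 7 and 1 counts in miR-199 replicates 1, 2 and 3, against 12 and 21 in vector replicates 1 and 3. In order of level per length, cxcr4b came first and cxcr3.2 next, followed by ccr9a and cxcr3.3, whose ranges overlapped, and then by ccr6a, ackr3b, cxcr4a and ccr10, all at or below 1.84 CPM per kilobase in each library.

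A count of 0 needs care in these tables. Of 1832 genes listed on more than 1 sequence, usually a chromosome and an alternate locus of it, 1128 (61.6%) were at 0 in all libraries, against 1598 of the 13503 genes listed on a single sequence. The receptor genes at 0, ackr3a and ccr12a, are both listed on several sequences, so their 0 does not show that they are silent. All 4 measured genes of the set are listed on 1 sequence.

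Among 45 further chemokine genes 10 were measured and 3 tested. Another 21 had under 10 counts, and the rest are not listed under these symbols, so their expression is unknown. Those 3 were ccl25b, ccl33.3 and ccl38.1, each averaging under 2 CPM in both groups. For ccl25b, which has the highest mean CPM of them, the counts were 7, 8 and 0 in miR-199 replicates 1, 2 and 3, against 22 and 26 in vector replicates 1 and 3, with an edgeR adjusted p of 0.190. The counts of ccl38.1 were 11, 25 and 8 in miR-199 libraries, against 2 and 3 in vector libraries. Its libraries did not overlap, and its log2 fold change of 2.63 (SE 0.93) had an edgeR adjusted p of 0.0961. The related Cxcl8 gene cxcl8b.1 did not pass the filter. It had 53, 1 and 3 counts in miR-199 replicates 1, 2 and 3, against 1 and 2 in vector replicates 1 and 3, so that nearly all its counts came from a single library. Per length, cxcl12a ran from 19.5 to 36.9 CPM per kilobase, and the next highest value of any of the 10 was 5.31 CPM per kilobase, for ccl38.1 in miR-199 replicate 2.

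**Figure D3:**
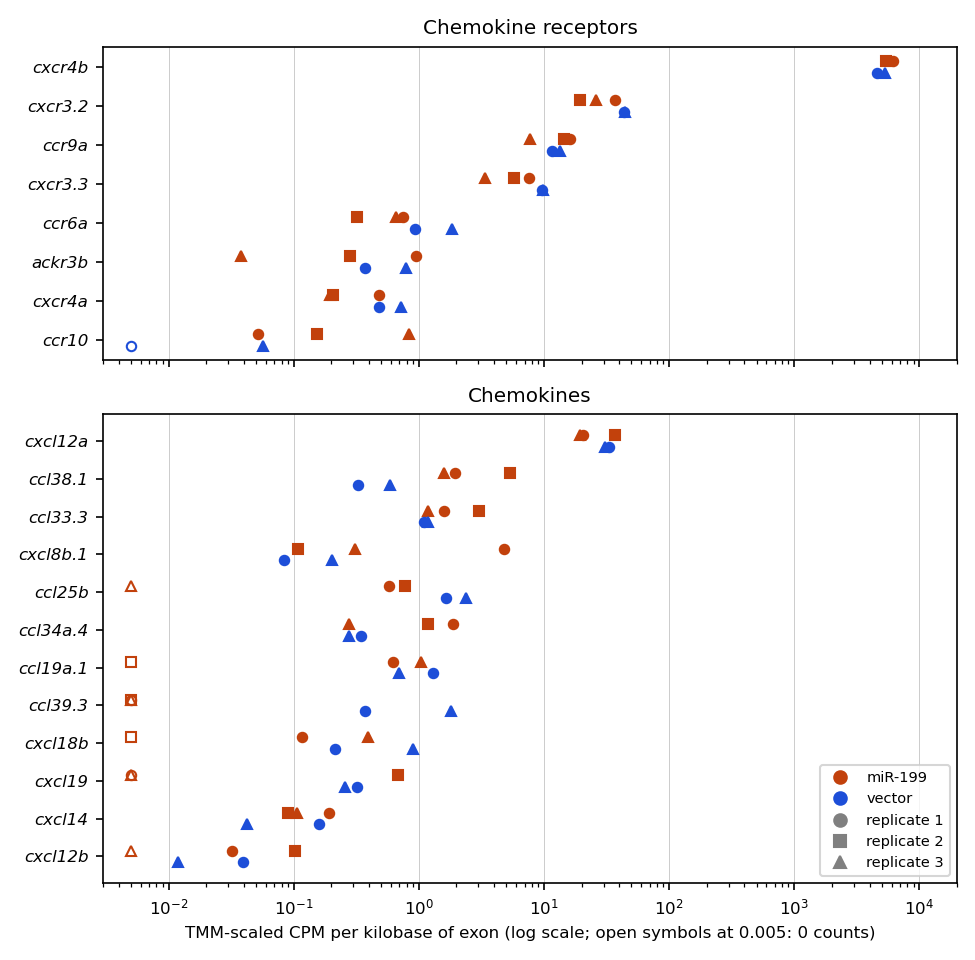
Level per length of every measured chemokine receptor gene and chemokine gene, on a log axis of TMM-scaled CPM per kilobase of exon, with 1 point for each library and miR-199 points drawn above vector points. Open symbols mark 0 counts. The receptor cxcr4b stands at 4550 to 6150 CPM per kilobase, above cxcr3.2 in each library, and cxcl12a stands above the other chemokines.

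No chemokine receptor or chemokine gene of these lists was called: 0 of 5 and 0 of 3 by edgeR, DESeq2 and limma-voom alike, where edgeR called 19.9% of all tested genes. In each list 1 gene had an unadjusted edgeR p under 0.05, as had 3281 of the 8897 tested genes. Of 12 receptors for other attractants 4 were measured, 3 had under 10 counts and the rest are not listed under these symbols. The 4 measured ones were tested and none was called by these tools, 1 of them having an unadjusted edgeR p under 0.05. The most abundant per length was s1pr4, a sphingosine phosphate receptor of blood cells, with 1380, 1200 and 1740 CPM in miR-199 replicates 1, 2 and 3, against 1160 and 1140 CPM in vector replicates 1 and 3. Its log2 fold change was 0.32 (SE 0.19; edgeR adjusted p 0.260). The leukotriene B4 receptor gene ltb4r averaged 575 ± 197 CPM (SD, n = 3) in miR-199 neutrophils and 672 ± 88.6 CPM (SD, n = 2) in vector neutrophils. The chemerin receptor gene cmklr1 had 3.95, 31.9 and 37.2 CPM in miR-199 replicates 1, 2 and 3, against 68.7 and 70.8 CPM in vector replicates 1 and 3, with an edgeR adjusted p of 0.208. Without miR-199 replicate 1, cmklr1 had an adjusted p of 0.00787 and gpr84, a fatty acid receptor, one of 0.0282, and no other alternative called either.

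Below the receptors, G protein, PI3-kinase and Rac genes had calls in both directions. Of 41 genes in this list 30 were measured, 1 had under 10 counts and the rest are not listed under these symbols. Of the measured genes 29 were tested. Among them edgeR called 3 higher and 5 lower, where 9.49% and 10.4% of all genes were called so. The list's median log2 fold change was 0.078, against 0.019 over all genes. Without miR-199 replicate 2 the count was 2, gna13b and gnb4b. Without vector replicate 1, and likewise without vector replicate 3, edgeR called 0 genes of any of the 6 lists, in fits that called 2 and 0 genes in all.

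The 5 lower genes were gnai2a, gnb4b, gng12a, gng5 and rac2. The list was made of genes of this pathway, so their place in the pathway is not a result. The Gi alpha subunit gene gnai2a had 756, 820 and 773 CPM in miR-199 replicates 1, 2 and 3, against 1090 and 1230 CPM in vector replicates 1 and 3, and fell by 0.57 on the log2 scale (SE 0.13, edgeR adjusted p 0.0303). The beta subunit gene gnb4b fell to 117 ± 5.77 CPM (SD, n = 3) in miR-199 neutrophils, against 211 ± 26.5 CPM (SD, n = 2) in vector neutrophils, with an edgeR adjusted p of 0.0125. The gamma subunit gene gng12a fell by 1.86 on the log2 scale (SE 0.38), and gng5 by 0.43 (SE 0.11), with edgeR adjusted p-values of 0.0241 and 0.0468. Per length, the most abundant called gene of the list was rac2, whose product drives actin assembly in neutrophils, at 1180 ± 107 CPM (SD, n = 3) in miR-199 neutrophils and 1950 ± 114 CPM (SD, n = 2) in vector neutrophils. It fell by 0.73 on the log2 scale (SE 0.14, edgeR adjusted p 0.0205).

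The call of gng5 was also lost with scaling by library totals only, at an adjusted p of 0.110, with upper-quartile scaling, at 0.0761, without a filter on low counts, at 0.0784, and without miR-199 replicate 1, at 0.0699. Without miR-199 replicate 2 the adjusted p was 0.0629 for gnai2a, 0.0972 for gng5, 0.0672 for gng12a and 0.0518 for rac2. Other subunits did not pass, among them gnai1 with a log2 fold change of -0.15 (SE 0.12). The gene with the highest mean CPM of the list, cdc42, which encodes a polarity GTPase, had 1540 ± 16.1 CPM (SD, n = 3) in miR-199 neutrophils and 1590 ± 71.5 CPM (SD, n = 2) in vector neutrophils.

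The 3 higher genes were gna13b, pik3r1 and pik3r2. The first encodes an alpha subunit of another G protein class, G13, and had 103, 80.2 and 57.5 CPM in miR-199 replicates 1, 2 and 3, against 21.5 and 24.8 CPM in vector replicates 1 and 3. It rose by 1.79 on the log2 scale (SE 0.27, edgeR adjusted p 0.0125). Both others encode regulatory subunits of class I PI3-kinase. The level of pik3r1 rose to 628, 1470 and 1160 CPM in miR-199 replicates 1, 2 and 3, against 355 and 330 CPM in vector replicates 1 and 3, and the log2 fold change was 1.66 (SE 0.36, edgeR adjusted p 0.0281). For pik3r2, which is listed on several sequences, the values were 35.9, 25.6 and 14.2 CPM in miR-199 libraries, against 6.54 and 6.21 CPM in vector libraries, and the log2 fold change was 1.98 (SE 0.42, edgeR adjusted p 0.0270). These calls too depended on single libraries, with an adjusted p of 0.0608 for pik3r1 and 0.0692 for pik3r2 without miR-199 replicate 2, and 0.0528 for pik3r1 without miR-199 replicate 3. The gene of the PI3-kinase gamma catalytic subunit, pik3cg, which chemokine receptors activate in neutrophils, had a log2 fold change of 0.078 (SE 0.20) and did not pass. Another catalytic subunit gene, pik3cd, had 0.90 (SE 0.27; edgeR adjusted p 0.0615) and had no call either. DESeq2 called pik3cd at 0.00952. So did edgeR with upper-quartile scaling, with library totals, without a filter on low counts and without miR-199 replicate 3, but in no other alternative. The gamma subunit gene gng2 also did not pass, with counts of 595, 1806 and 2533 in the miR-199 libraries, against 396 and 360 in the vector libraries. Its edgeR adjusted p was 0.0534, and DESeq2 called it at 0.000226. By edgeR it was called with library totals at 0.0452, without a filter on low counts at 0.0254 and without miR-199 replicate 1 at 0.00114. No other alternative called it.

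Genes that switch receptors off or sort them after uptake gave 1 higher and 2 lower calls among 18 tested, where 9.49% and 10.4% of all genes were called so, and a median log2 fold change of -0.15, against 0.019 over all genes. The kinase gene grk4, whose family phosphorylates activated receptors, rose to 32.7 ± 5.65 CPM (SD, n = 3) in miR-199 neutrophils, against 18.4 ± 0.802 CPM (SD, n = 2) in vector neutrophils, with an edgeR adjusted p of 0.0393. The gene rgs2, which encodes a protein that shortens G protein signals, had 28.5, 63.6 and 63.9 CPM in miR-199 replicates 1, 2 and 3, against 145 and 152 CPM in vector replicates 1 and 3, and fell by 1.51 on the log2 scale (SE 0.34, edgeR adjusted p 0.0313). The deubiquitinase gene usp14, whose human product acts on CXCR4, fell by 0.82 (SE 0.12, edgeR adjusted p 0.0114). Without miR-199 replicate 2 the adjusted p was 0.0681 for grk4 and 0.0645 for rgs2, whereas usp14 was at 0.0282. The arrestin gene arrb2b, the most abundant of the list per length, had a log2 fold change of -0.31 (SE 0.12; edgeR adjusted p 0.111, DESeq2 adjusted p 0.0343). DESeq2 called 6 and limma-voom 5 of the 18 genes, where they called 2673 and 1726 of all 8897 tested genes.

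Among 12 tested genes known to induce cxcl8 or cxcr4, or to regulate such inducers, 2 were lower and 0 higher, where 10.4% and 9.49% of all genes were called so. The interleukin gene il1b had 51.0, 40.6 and 63.3 CPM in miR-199 replicates 1, 2 and 3, against 365 and 883 CPM in vector replicates 1 and 3. It fell by 3.59 on the log2 scale (SE 0.40, edgeR adjusted p 0.00678), although the 2 vector libraries differed from each other more than 2-fold. The gene nfkbiaa, a target and inhibitor of NF-kB, fell to 134 ± 46.4 CPM (SD, n = 3) in miR-199 neutrophils, against 394 ± 75.8 CPM (SD, n = 2) in vector neutrophils, with an edgeR adjusted p of 0.0191 that was 0.0620 without miR-199 replicate 2. Its paralog nfkbiab, the most abundant of the list per length, had a log2 fold change of 0.58 (SE 0.36), and the hypoxia factor gene hif1ab one of -0.25 (SE 0.14), neither passing the test. Whether cxcl8a followed il1b is not analysed here.

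**Figure D4:**
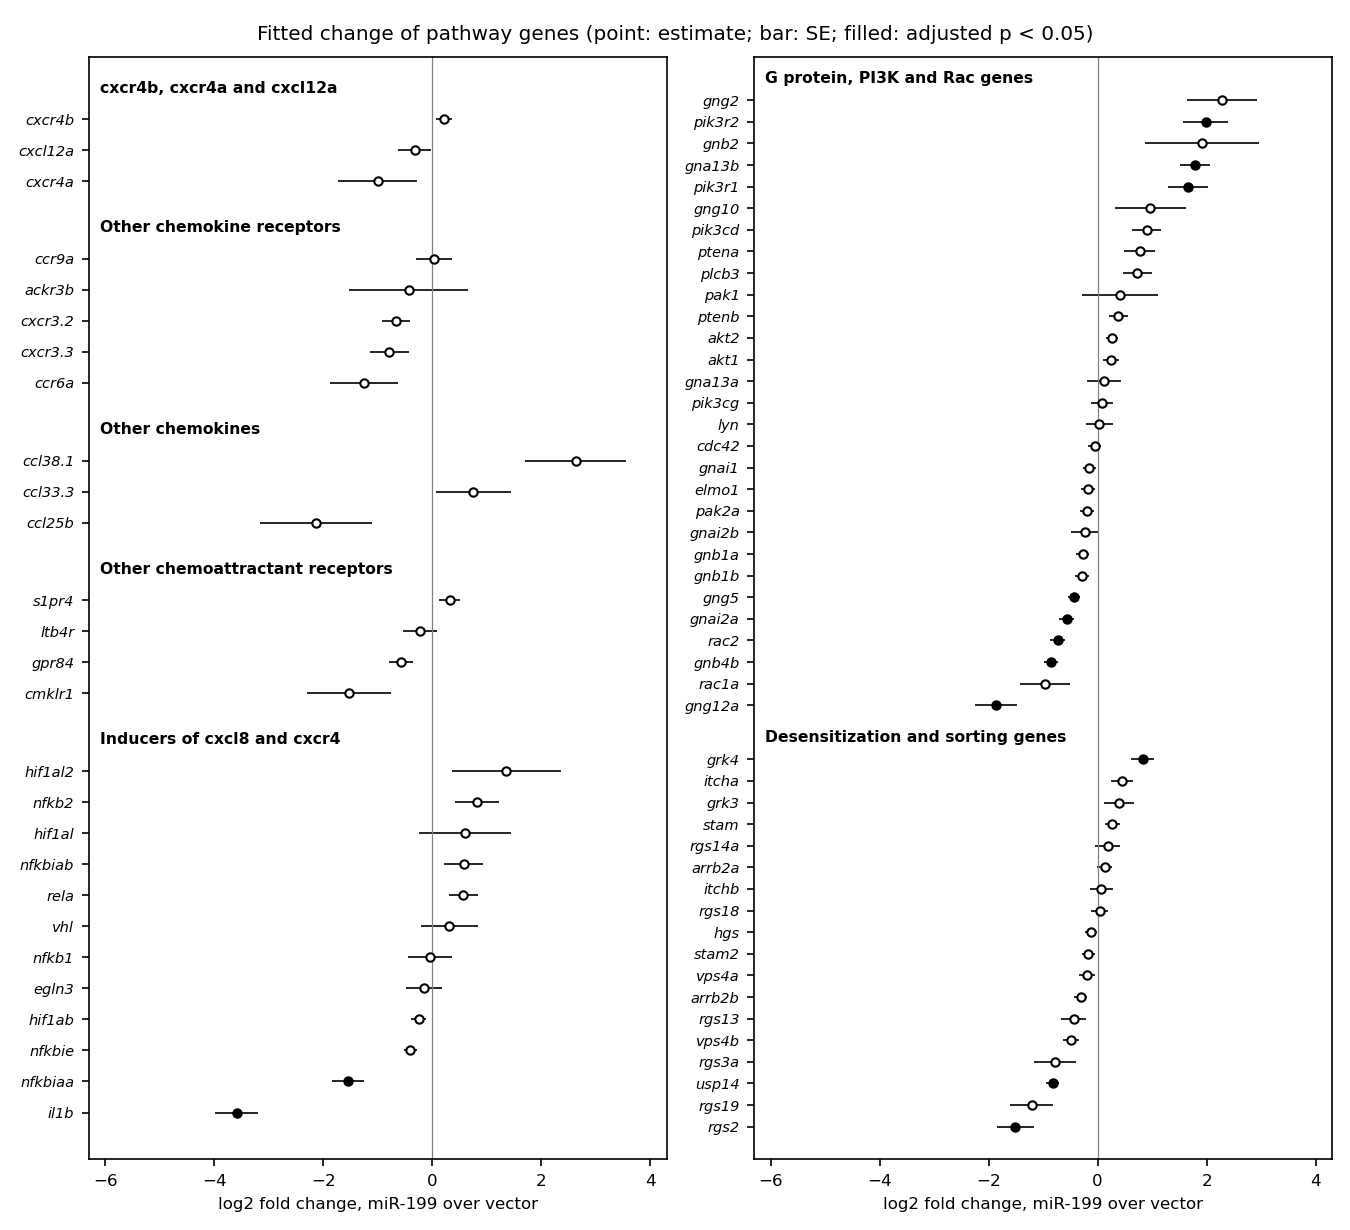
Log2 fold change of miR-199 over vector neutrophils for each tested gene of the 6 lists and for cxcr4b, cxcr4a and cxcl12a, with bars of 1 SE and filled points for adjusted p-values under 0.05. The points of receptors and chemokines are open, and 13 of the 71 points of the lists are filled, from il1b at -3.59 to pik3r2 at 1.98.

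Over the 6 lists together, 13 of 71 tested genes (18.3%) were called, 4 higher and 9 lower, a share close to the 19.9% of all tested genes. Markers of other cell types moved with the groups in part. Of 12 macrophage markers 5 were measured, 5 had under 10 counts and the rest are not listed. The listed ones summed to at most 58.9 CPM in miR-199 libraries, against 125 to 128 CPM in vector libraries. The vector sums were carried by grn1, the 1 macrophage marker called, at 3.87 ± 1.58 CPM (SD, n = 3) in miR-199 neutrophils and 107 ± 0.632 CPM (SD, n = 2) in vector neutrophils. Of the 5 tested macrophage markers 3 had positive fitted log2 fold changes, and the antigen presentation genes cd74a and cd74b ran the other way from grn1. The values of cd74b were 20.5, 16.5 and 7.52 CPM in miR-199 libraries, against 4.9 and 4.53 CPM in vector libraries (log2 fold change 1.65, edgeR adjusted p 0.0522), and cd74a had a log2 fold change of 0.88 (edgeR adjusted p 0.134). The defining marker mpeg1.1 and 3 complement genes were at 0 and are listed on several sequences. Of 7 endothelial markers 5 were measured, and the list summed to 379 to 534 CPM in miR-199 libraries, against 378 to 389 CPM in vector libraries. Most of this came from fli1a, with 414, 429 and 319 CPM in miR-199 libraries, against 368 and 382 CPM in vector libraries. Its log2 fold change was 0.048 (edgeR adjusted p 0.855). The 1 endothelial marker called was tie1, higher in miR-199 neutrophils, with 119, 86.7 and 50.8 CPM in replicates 1, 2 and 3, against 6.42 and 4.83 CPM in vector replicates 1 and 3. The defining endothelial marker kdrl had 1, 4 and 4 counts in miR-199 replicates 1, 2 and 3, against 34 and 0 in vector replicates 1 and 3. The keratinocyte list summed to 1800 to 2530 CPM in miR-199 libraries, against 2210 to 3020 CPM in vector libraries, nearly all of it from icn. Of its 14 markers 6 were measured and 8 had under 10 counts. Of the latter, krt5 and epcam were at 0 and are listed on several sequences, whereas cyt1 and cyt1l were at 0 on 1 listed sequence each. The keratin gene krt8 had 104, 44.3 and 58.0 CPM in miR-199 libraries, against 84.3 and 78.5 CPM in vector libraries. Another keratin gene, krt4, had 2.5 to 4.23 CPM in miR-199 libraries, against 3.95 to 4.06 CPM in vector libraries. The 1 keratinocyte marker called was krt91, lower in miR-199 neutrophils. Erythroid markers summed to 12.5 to 35.0 CPM in miR-199 libraries and to 8.54 to 8.63 CPM in vector libraries. The globin genes hbae3 and hbbe2 were at 0, and 2 of 9 markers were measured. These were slc4a1a and cahz, which made up nearly all of the sum. Their log2 fold changes were 1.43 (edgeR adjusted p 0.0961) and 1.2 (0.139). The part of these cells in the results was not tested.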

How the data were processed

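Per the file headers, the deposited tables hold raw read counts per gene symbol, with listed exons and lengths in the layout of featureCounts. The submitters' processing notes name bcl2fastq, STAR 2.5, featureCounts, Subread 1.5.1, edgeR 3.20.8 and GRCz11, without roles; strand use and the rule for reads with several placements are not given in the sources used here. The 5 mRNA tables were used, and the small RNA table was not.

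The 3 miR-199 and 2 vector libraries entered the quasi-likelihood test of edgeR (two-sided, TMM scaling, filterByExpr by group) over the 8897 genes that passed the filter. Benjamini-Hochberg adjustment covered all of them, with calls under 0.05. SE is the fold change over the square root of F, and 95% intervals use its t quantile. CPM is TMM-scaled, and patterns and standard deviations on the log2 scale used log2(CPM + 0.5). Library totals ran from 12339928 to 17024134 counts. Replicate pairs were not within counting noise (chi-square per degree of freedom from 14.5 to 114). The fit was also run on simulated data, in which far fewer genes were changed than were called here. It called few unchanged genes and most of the larger changes, but missed most 2-fold changes in either direction. With so few changed genes the adjustment is stricter, so this share of missed genes does not carry over to these data. A gene without a call may still have changed. Alternatives were other scalings, filters, tools, a replicate block and leaving out each library.

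The members and lists were chosen with earlier results of these data known. Named genes were all members, called list genes, the list gene or marker with the highest mean CPM and 2 pattern neighbours per tested member; other genes named were chosen after their values were seen. Versions were matplotlib 3.10.9, pandas 2.3.3 and numpy 2.4.6 under Python 3.11.15, and DESeq2 1.42.0, edgeR 4.0.16 and limma 3.58.1 under R 4.3.3.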

Additional observations from a re-analysis of the deposited data

How the results depend on the processing

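The directions of cxcr4b, cxcr4a and cxcl12a held, without a call, in every alternative that could be fitted for them: 13, 11 and 13 settings. The count of genes called was 1772 in the main comparison, 2673 with DESeq2 and 110 with the replicate number as a replicate block, and between 0 and 2195 when leaving out each library. Under the replicate block cxcl12a was at -0.67 with an adjusted p of 0.143. With 2 shared replicate numbers the labels do not show a pairing, and deviations of libraries with the same number correlated at -0.23 and -0.18 across genes. The deviations of 2 vector libraries mirror each other, so the same miR-199 libraries had 0.23 and 0.18 with the other vector library. These correlations therefore cannot decide whether libraries were paired. The block gave 0 called G protein, PI3K and Rac genes, 0 desensitization genes and 1 inducer gene. Of the 18 tested desensitization genes, DESeq2 called 6 and limma-voom 5, where they called 2673 and 1726 of all 8897 tested genes. Leaving out each library gave 0 to 1 called chemokine receptors, 0 to 2 other attractant receptors, 0 to 10 G protein, PI3K and Rac genes, 0 to 6 desensitization genes and 0 to 3 inducer genes. The sign of cdc42 turned to 0.0019 with upper-quartile scaling and to 0.079 with library totals; the cause was not tested. Depth limits cxcr4a and cxcl18b, and 2 vector libraries limit each test.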
